A study of Mus musculus with 36 samples.

Results

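The loci of the ISG15 conjugation system in mouse are described here by the accessible regions in and around 5 genes: Isg15, Uba7, Herc6, Usp18 and Isg20. A region was taken as belonging to a gene when its deposited peak overlapped the gene body or the 10 kb to either side of it (10000 bases). The rule found 40 of the 119751 deposited peaks, 9 at Isg15, 10 at Usp18, 6 at Uba7, 11 at Herc6 and 4 at Isg20. All 40 passed the filter on low counts. Of these, 19 overlapped a gene body and 21 lay on it or within 1 kb. The rule used positions and no measured value. Isg20 is an interferon-induced exonuclease and not an enzyme of ISG15 conjugation, so the label holds for the other 4 genes.

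The cells were bone marrow-derived dendritic cells grown with GM-CSF from female C57BL/6 mice aged 6 to 8 weeks, and every group shared that source. Transposase-accessible DNA was sequenced (ATAC-seq) 6 h after pattern recognition receptor ligands were added. The 6 single stimulations are written by letters: PAM is P, LPS is L, the ligand labelled HMW is H, SeV is S, 3',3'-cGAMP is cG and Zymosan depleted is Z. The control without ligand is Ctrl. The 8 pairs were PL, PH, LH, PS, PcG, ScG, ZS and ZcG, and the 3 triplets were PLH, PScG and ZScG. Each of the 18 groups had 2 libraries, labelled as duplicates. The labels do not say whether duplicates came from separate mice or cultures, so the p-values measure only the spread between these libraries.

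ISG15 is a ubiquitin-like protein that cells attach to other proteins during an interferon response. UBA7 is the E1 enzyme that activates it, UBE2L6 is the E2 enzyme that carries it, and HERC6 is the main E3 ligase that attaches it in mouse cells. USP18 is the protease that removes it, and USP18 also binds the interferon receptor and dampens its signal. The genes are interferon-stimulated: a factor complex activated by interferon binds a DNA element, the interferon-stimulated response element (ISRE), in many of their promoters. Accessibility measures how open a stretch of chromatin is and is not a measure of transcription.

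The promoter windows of the genes are shown for the letters that a promoter of an interferon-stimulated gene can hold. RefSeq entries of build GRCm38.p6 (250 bases before to 50 after the start, 300 in all) matched 4 of the 5 genes, with 3 windows for Isg20. Usp18 had no entry in the table used here. The Isg15 window, chr4:156200769-156201068 on the minus strand, is printed first. Its capitals mark a run of 22 bases, 78 to 57 bases before the start, in which the ISRE letters (GAAA, any 2 bases, GAAA) matched at 3 overlapping positions. The Uba7 window, chr9:107975317-107975616 on the plus strand, has in capitals a match to the AP-1 motif, 152 bases before the start. The first Isg20 window, chr7:78913174-78913473 on the plus strand, has in capitals a match to a STAT-type (GAS) motif, 73 bases before the start.
Isg15: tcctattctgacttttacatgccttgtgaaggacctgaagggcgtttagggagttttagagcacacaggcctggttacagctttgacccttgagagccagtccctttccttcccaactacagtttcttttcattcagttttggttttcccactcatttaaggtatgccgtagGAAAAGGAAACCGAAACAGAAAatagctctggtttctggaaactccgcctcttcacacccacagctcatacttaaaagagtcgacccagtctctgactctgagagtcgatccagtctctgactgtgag
Uba7: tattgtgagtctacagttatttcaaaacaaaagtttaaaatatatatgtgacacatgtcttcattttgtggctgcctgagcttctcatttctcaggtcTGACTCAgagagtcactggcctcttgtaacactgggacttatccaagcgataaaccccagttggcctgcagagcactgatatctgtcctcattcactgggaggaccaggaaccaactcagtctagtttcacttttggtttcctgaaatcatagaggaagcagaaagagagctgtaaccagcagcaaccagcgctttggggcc
Isg20: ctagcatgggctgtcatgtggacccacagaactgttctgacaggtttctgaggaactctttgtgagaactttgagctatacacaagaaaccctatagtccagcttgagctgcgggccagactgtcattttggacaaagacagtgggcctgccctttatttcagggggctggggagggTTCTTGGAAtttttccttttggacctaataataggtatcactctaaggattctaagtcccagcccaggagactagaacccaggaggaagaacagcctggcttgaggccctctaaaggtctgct

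Both strands were searched for GAAA, any 2 bases and GAAA (ISRE), TTCNNNGAA (GAS), GGGANTTCC (kB) and TGANTCA (AP-1). Among 32817 windows of the same length, 3.43% held the ISRE letters, 8.29% the GAS letters, 1.68% the kB letters and 7.81% the AP-1 letters. The ISRE letters were found in the Isg15 window and not in the windows of Uba7, Herc6 or Isg20. The Herc6 window, chr6:57580742-57581041 on the plus strand, and the 2 other Isg20 windows held none of the 4 motifs. These are exact matches of letters, so near matches were not counted, and binding was not measured.

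Library totals ran from 19097027 to 39977088 counts, with 8181254 to 21985891 outside the mitochondrial genome. The mean mitochondrial share split the groups: it was 58.27% to 62.95% in Ctrl, Z, ZcG, ScG and ZScG and 44.38% to 54.55% in the other 13 groups. Single libraries overlapped across this split. ZS replicate 1 had 58.1%, above ScG replicate 1 (57.3%) and ZScG replicate 1 (57.9%), and ZS replicate 2 had 51.0%. For those 13 groups, a difference from control and a difference between the sets cannot be told apart, so comparisons that leave control out are also given below. The same limit holds for every comparison of a group in one set with a group in the other. All 13 dendritic and myeloid marker genes had a tested peak, with a summed level of 288 CPM in control and 276 to 342 over the groups. No tested peak lay at the defining markers Ly6g and Elane (neutrophils), Cd3g and Cd8a (T cells), Ncr1 (NK cells), Gata1 and Hbb-bt (erythroid cells) or Cpa3 and Mcpt4 (mast cells). Summed levels over the remaining markers ran from 11.8 to 22 CPM for neutrophils, 9.72 to 17.9 for NK cells, 9.98 to 16.2 for erythroid cells, 5.56 to 11.9 for T cells, 2.34 to 7.34 for B cells and 2.53 to 6.06 for mast cells. Neutrophil markers were highest and B and T cell markers lowest in control. Their part in the results was not tested. More open chromatin per cell and more cells with open chromatin cannot be told apart in bulk libraries.

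Setting the stimulations against control asks which of the loci opened or closed. Most changes at these loci were openings. Over the 17 comparisons, edgeR's quasi-likelihood test called 256 of 680 values (adjusted p under 0.05, Benjamini-Hochberg over 119464 tested peaks), 234 higher and 22 lower than control. In the same fit, 5.91% (Z) to 37.1% (PScG) of all peaks were called per comparison. The share higher was 4.16% to 19% and the share lower 1.75% to 18.1%. All tests below are from this fit, with 2 libraries a group. Levels are CPM, counts outside the mitochondrial genome scaled to a common library size, and a fold change is a fitted ratio with the standard error of its log2 value.

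Among single ligands, cG raised 19 and lowered 1 of the 40 peaks, beside 23.3% of all peaks called (11.6% higher and 11.6% lower). S raised 18 and lowered 2, beside 27.9% (14.1% higher and 13.8% lower). L raised 16 and lowered none, beside 22.3% (11.2% higher and 11.1% lower). H raised 9, beside 10.7% of all peaks called (5.21% higher and 5.46% lower), and Z raised 6, beside 5.91% (4.16% higher and 1.75% lower), with none lower in either. P raised 4 and lowered 2, which is 15% of the loci, beside 20.5% of all peaks (11.1% higher and 9.45% lower). The median log2 fold change of the 40 peaks was 0.84 with L, 0.77 with cG, 0.73 with H, 0.68 with S, 0.21 with Z and 0.04 with P. Over all tested peaks the same medians lay between -0.04 and 0.03. With peaks at 0 counts set to their bound, the L median was 0.72 and the H median 0.69. Without Ctrl replicate 2 the count for cG was 11, and without Z replicate 2 that for Z was 3. Total-count scaling called 11 with P and 16 with H.

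Every combination of ligands also opened more of these peaks than it closed. The pairs called 14 (PL, beside 27.3% of all peaks), 13 (PH, 26.3%), 14 (LH, 21.8%), 17 (PS, 33.4%), 17 (PcG, 32.9%), 18 (ScG, 27.7%), 18 (ZS, 28.3%) and 18 (ZcG, 21.6%) of the 40. ZcG lowered 2 of them, beside 10.2% of all peaks lower. The triplets called 16 (PLH, beside 29.7%, and 10 without Ctrl replicate 2), 20 (PScG, 37.1%) and 14 (ZScG, 32.3%). The share of the loci called was 32.5% to 50% over these 11 combinations. Of the 40 peaks, 24 were higher than control in at least 1 stimulation, 13 in at least 10, and 5 were lower in at least 1. Such counts were not made over all peaks, so these have nothing to be read against. The 13 peaks never called included 9 with a mean level under 2 CPM, where few counts limit the test.

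**Figure D1:**
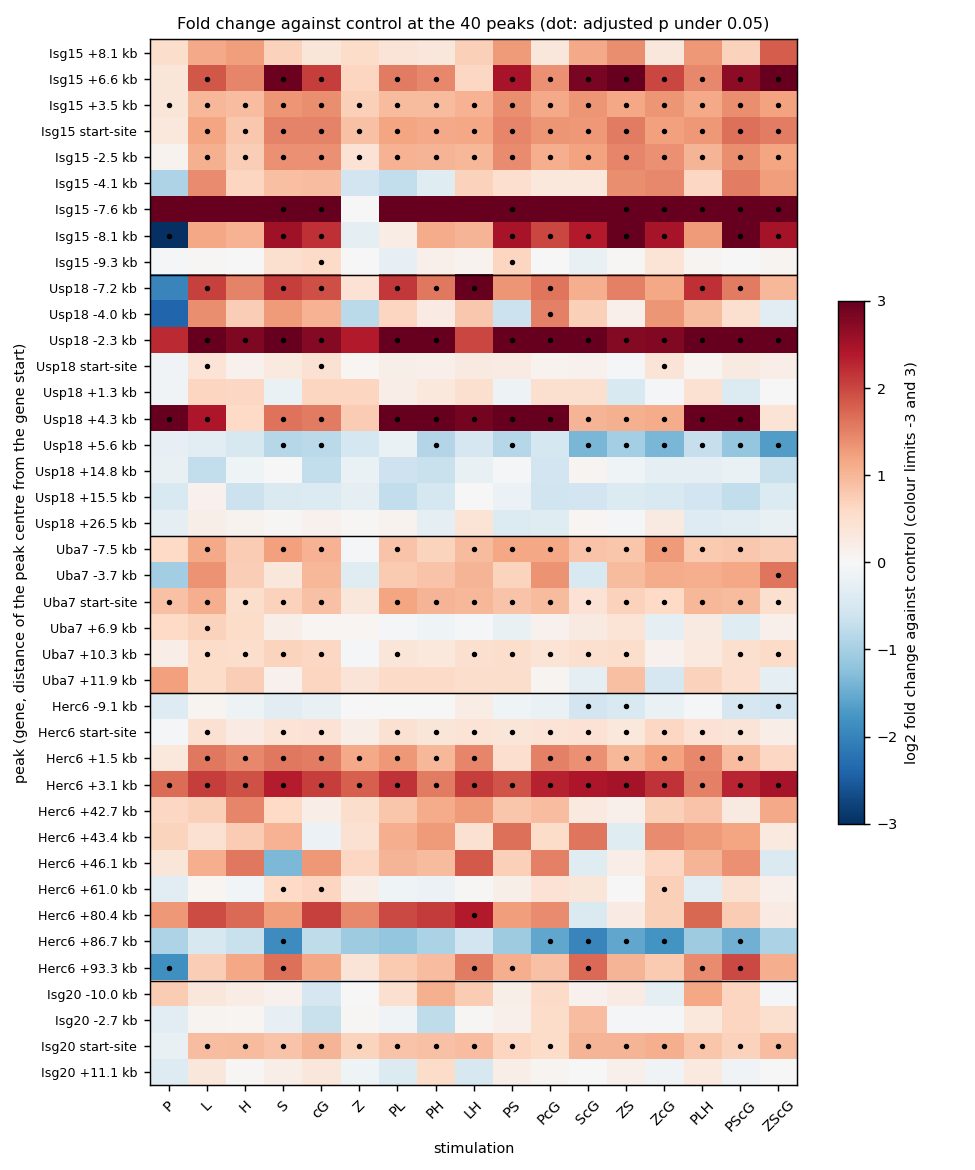
Fitted log2 fold change against control (colour, limits -3 and 3) for the 40 peaks (rows, by gene and distance of the peak centre from the gene start) in the 17 stimulations (columns), with a dot where the adjusted p was under 0.05. Rows of dots run across nearly every stimulation at the Isg15, Uba7 and Isg20 start sites, while the P column holds 6 dots.

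At Isg15, the gene of the modifier itself, the start-site peak (chromosome 4, 156199569 to 156201664, over the promoter and gene body) opened with every stimulation but P. Its level was 8.85 and 10.8 CPM in control. It was 28.9 and 26.4 with S, 27.1 and 27.9 with cG, 20.6 and 24.4 with L, 16.9 and 19.1 with Z, and 18.2 and 16 with H. With P it was 12.5 and 12.1, above both control libraries and below every library of the other stimulations. The fold was 2.80 with S (log2 1.49 ± 0.15, adjusted p = 3.3e-17), 2.79 with cG (1.48 ± 0.15) and 2.28 with L (1.19 ± 0.15). It was 1.83 with Z (0.87 ± 0.16), 1.74 with H (0.80 ± 0.15) and 1.24 with P (0.32 ± 0.16, adjusted p = 0.16). Scaled by total counts, which moves the median of all peaks by 0.32 in this comparison, the P value was 0.64 and passed the test.

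The pairs and triplets raised the Isg15 start site by 1.14 to 1.65 on the log2 scale, and all 11 passed the test. The highest level was 32.1 and 29.7 CPM in PScG, a fold of 3.13. The order over the 18 groups ran from PScG, ZS, ZScG, S, cG and PS at 30.9 to 27.1 CPM down to Z (18), H (17.1), P (12.3) and control (9.83). In 13 of the 17 steps of this order, the libraries of neighbouring groups overlapped. The 6 groups at the top overlapped from one to the next, and PS, the last of them, did not overlap PcG below it.

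The region with the most counts at the locus lay downstream, centred 3.5 kb past the Isg15 start (chromosome 4, 156195135 to 156199490). It overlapped the 3' end of Isg15, Gm46878 and the promoter of Agrn, a gene for a basement membrane proteoglycan, so it cannot be assigned to Isg15 alone. Its level rose from 47.7 and 51.4 CPM in control to 121 and 128 with S and 135 and 126 with cG. It was called higher in all 17 stimulations, P included (64.2 and 64.0 CPM, log2 0.37 ± 0.10, adjusted p = 0.00166). The highest values were 1.4 in PS and in PScG.

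The upstream side opened as well. The peak 2.5 kb before the start, which overlaps Perm1 and AW011738, was called higher with 16 stimulations, from 0.44 with Z to 1.46 with ZS, and had 0.11 ± 0.14 with P. Scaling by total counts made that P value 0.43 and past the threshold. A small peak 6.6 kb downstream, inside Agrn and Gm46878, rose from 0.765 and 0.289 CPM in control to 4.06 and 4.00 with S and 4.52 and 5.07 with ZS. The ZS fold was 9.17 (log2 3.20 ± 0.50), and the peak was higher in 13 stimulations. At 7.6 kb upstream both control libraries had 0 counts. Against a floor of 3 counts over the control group, accessibility there was at least 5.27-fold higher in ZcG and at least 5.17-fold higher in ZS. The libraries were uneven, with 2 and 12 counts in ZcG and 13 and 3 in ZS, so each bound rests mostly on 1 library. At 8.1 kb upstream, control held 7 counts and P held 0, so P was at most 0.31 times control (floor of 3 counts over the group), while PScG held 100 counts, a ratio of 11.1 (95% counting interval 5.18 to 28.2).

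**Figure D2:**
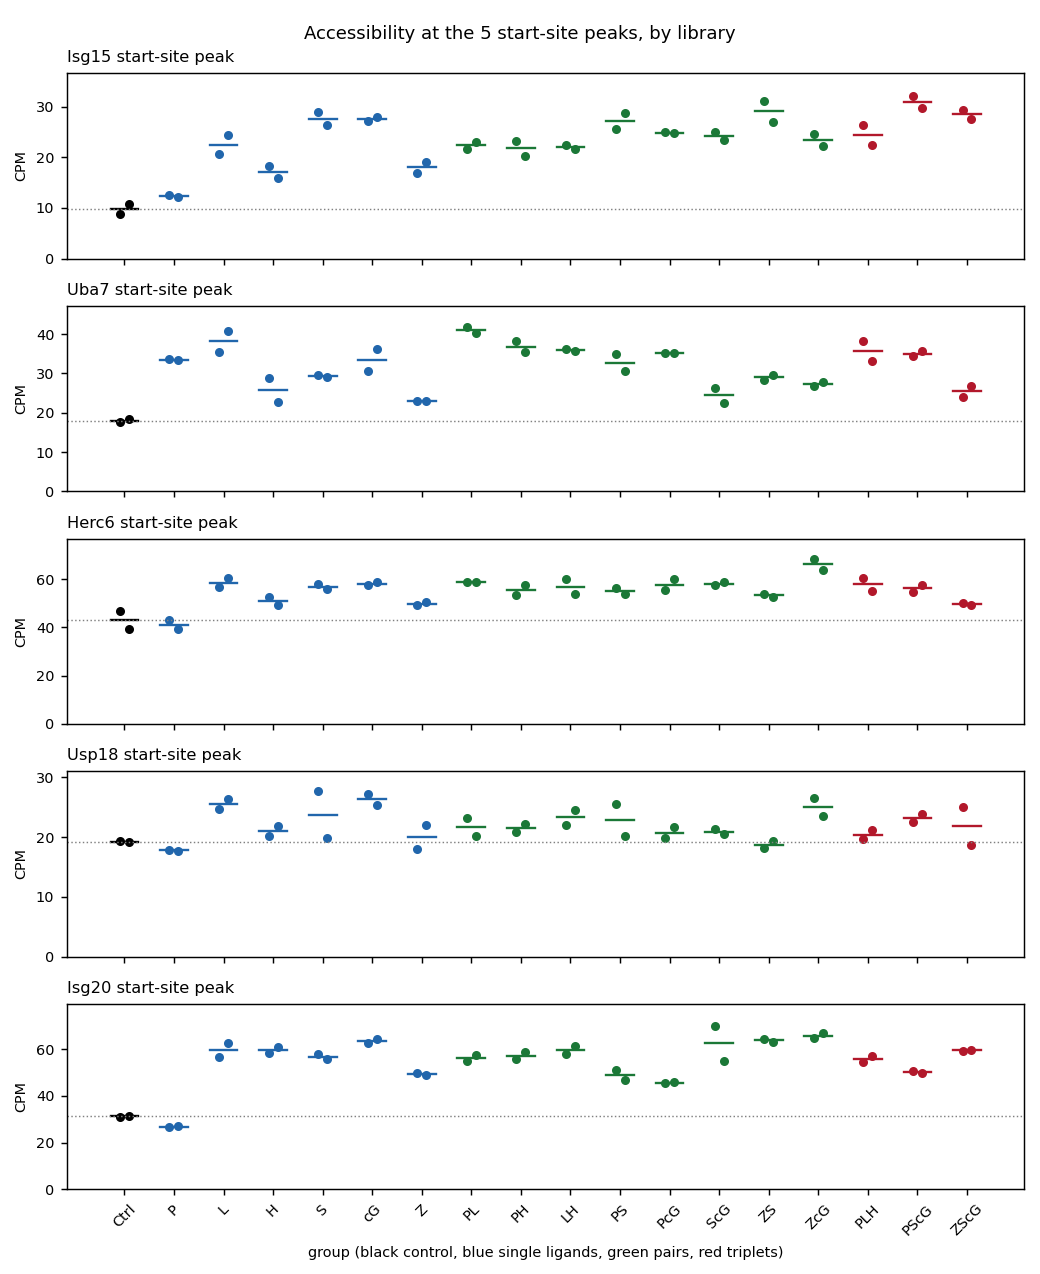
CPM at the start-site peaks of the 5 genes in each library (points) of the 18 groups, with the group mean as a bar and the control mean as a dotted line. Isg15 in every stimulation lies above both control libraries, at 12.1 CPM or more, whereas Usp18 stays between 17.7 and 27.7 CPM in all groups.

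Uba7, the gene of the E1 enzyme, opened at its start-site peak (chromosome 9, 107974536 to 107976536) with P and with every other stimulation but Z. The level was 17.7 and 18.3 CPM in control and 33.6 and 33.3 with P, so P and control did not overlap. L reached 35.5 and 40.9 CPM, cG 30.5 and 36.3, S 29.6 and 29.0, H 28.9 and 22.7 and Z 23.0 and 23.0. The fold was 2.12 with L (log2 1.09 ± 0.13), 1.85 with P (0.89 ± 0.13, adjusted p = 4e-09), 1.85 with cG (0.89 ± 0.13), 1.63 with S (0.70 ± 0.13) and 1.44 with H (0.53 ± 0.13). Z did not pass the test (0.35 ± 0.14, adjusted p = 0.12), and all 11 combinations did, from 0.44 in ScG to 1.19 in PL. Leaving out H replicate 1 gave 0.34 for H, leaving out ScG replicate 1 gave 0.31 for ScG and leaving out ZScG replicate 2 gave 0.42 for ZScG, and none of these passed the test.

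The groups at the top of the Uba7 order were PL (41.0 CPM), L (38.2), PH (36.8) and LH (36), all with overlapping neighbours. S and cG, the highest single ligands at Isg15, had lower means than L here. The libraries of cG (30.5 and 36.3 CPM) and L (35.5 and 40.9) overlapped, and cG and L did not differ in the test. In the direct comparison of single ligands, S was below L at Uba7 by 0.39 ± 0.11 (adjusted p = 0.015), while at the Isg15 start site S exceeded L by 0.29 ± 0.13 (adjusted p = 0.13). The peak 10.3 kb downstream (chromosome 9, 107984849 to 107986870), which overlaps the promoter of Inka1, was called higher in 12 stimulations, up to 0.66 ± 0.13 with S, and was -0.06 ± 0.14 with Z. A peak 7.5 kb upstream, inside Traip, was also higher in 12, up to 1.27 ± 0.31 with ZcG.

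Herc6, the gene of the E3 ligase, was open in control already. Its start-site peak (chromosome 6, 57580406 to 57581994) had 47.0 and 39.2 CPM in control. The control means at the other start sites were 9.83 at Isg15, 18 at Uba7, 31.2 at Isg20 and 19.3 at Usp18, not corrected for peak width. Averaged over all libraries, most of them stimulated, it had 34.4 CPM per kb, beside 10.96 at Isg15, 15.5 at Uba7, 14.1 at Isg20 and 18.02 at Usp18. The Herc6 start site rose by 1.24-fold to 1.54-fold in 13 stimulations, the highest in ZcG (68.4 and 64.0 CPM, log2 0.62 ± 0.10). P (-0.06 ± 0.10), Z (0.21 ± 0.11), H (0.25 ± 0.10) and ZScG (0.21 ± 0.11) did not pass the test. The P value was 0.26 when libraries were scaled by total counts. Most of these calls rested on 1 control library: without Ctrl replicate 2, 12 of the 13 calls were lost, with values of 0.18 in ZS to 0.32 in L and PL. Leaving out PH replicate 2 (0.31), LH replicate 1 (0.33), ZS replicate 1 (0.30) or ZS replicate 2 (0.32) also ended the call of that pair.

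Larger changes lay inside the gene. The peak 3.1 kb past the Herc6 start (chromosome 6, 57583783 to 57584334) had 0.874 and 0.675 CPM in control and 1.74 to 5.59 CPM in the stimulated libraries, with no overlap. It was called higher in all 17 stimulations, from 1.52 ± 0.46 in PLH to 2.50 ± 0.44 in ZS, and with P it was 1.68 ± 0.46 (3.21-fold). Without Ctrl replicate 2 the PLH value was 1.33 and the P value 1.5, and without P replicate 1 the P value was 1.28, and these calls were lost. The peak at 1.5 kb was higher in 14 stimulations, up to 1.59 ± 0.31 with S, and was 0.32 ± 0.35 with P. The distal peak 9.1 kb upstream went the other way and was lower in 4 stimulations, ScG, ZS, PScG and ZScG, the lowest at -0.58 ± 0.18 in ZScG. Leaving out Ctrl replicate 1 gave -0.32 there and leaving out ZScG replicate 2 gave -0.39, both short of the threshold. The peak 86.7 kb past the start, beyond the gene end, was lower in 6, down to -1.99 ± 0.56 with ScG. That value was -1.30 without Ctrl replicate 2, and the call was also lost without ScG replicate 1 (-1.87).

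Usp18, the gene of the deconjugating protease, changed little at its start and strongly inside the gene. The start-site peak (chromosome 6, 121245120 to 121246333) had 19.4 and 19.1 CPM in control and 17.7 to 27.7 over all stimulated libraries. It was called higher with cG (27.2 and 25.4 CPM, 0.45 ± 0.14), L (24.7 and 26.3 CPM, 0.41 ± 0.14) and ZcG (26.6 and 23.6 CPM, 0.38 ± 0.15). Leaving out 1 library ended each of these 3 calls: either library of either group for L (0.36 to 0.45) and for ZcG (0.31 to 0.47), and Ctrl replicate 2 (0.44) or cG replicate 1 (0.40) for cG. Without S replicate 2 the S value was 0.52 and passed the test. With total-count scaling, S, PL, PH, LH, PS, PcG, PLH and PScG passed the test too, at 0.43 to 0.66, and ZcG did not (0.32). In this order of groups, the libraries of 16 of 17 neighbours overlapped.

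Within Usp18, the peak 4.3 kb past the start (chromosome 6, 121249901 to 121250599, inside the gene) separated stimulations that hold P or L from the rest. It was chosen after its values were seen. Control had 1.97 and 0.772 CPM. P had 13.6 and 10.3, L 6.22 and 8.20, S 5.04 and 3.38, cG 4.06 and 3.8, Z 2.76 and 1.89 and H 2.67 and 1.21. The fold was 8.84 with P (log2 3.14 ± 0.31, adjusted p = 1.5e-17), 5.39 with L (2.43 ± 0.32), 3.12 with S (1.64 ± 0.34) and 2.92 with cG (1.55 ± 0.35). H (0.59 ± 0.39) and Z (0.77 ± 0.41) did not pass the test. Without Ctrl replicate 2 the cG value was 0.99 and the call was lost.

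All combinations with P or L reached 8.57 to 14.8 CPM at this peak, above every library without P or L, whose highest was 5.04. Their values were 3.38 ± 0.30 in PH, 3.16 ± 0.30 in PS, 3.12 ± 0.30 in PcG, 3.11 ± 0.31 in PL, 3.06 ± 0.31 in PLH, 2.99 ± 0.31 in PScG and 2.87 ± 0.31 in LH. ScG (1.01 ± 0.39), ZS (1.07 ± 0.38) and ZcG (1.11 ± 0.39) were called with smaller values, and ZScG (0.42 ± 0.44) was not. Those 3 calls were lost without Ctrl replicate 2, at 0.46, 0.52 and 0.56, without ScG replicate 1 (0.70), ZS replicate 2 (0.88) or either ZcG library (1.11 and 1.12), and when only the groups compared entered the fit. Direct comparison gave a log2 value of 0.71 ± 0.22 less in L than in P (adjusted p = 0.018), 1.5 ± 0.23 less in S and 1.60 ± 0.24 less in cG.

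Other peaks of the locus differed again. The peak 2.3 kb upstream held 1 count in each control library and was called higher in 14 stimulations. In PScG it held 86 counts, a ratio of 33.3 to control (95% counting interval 8.95 to 279). With P it held 14 counts, a ratio of 5.07 (1.16 to 46), and did not pass the test. The peak 5.6 kb past the start closed: it fell from 7.43 and 8.78 CPM in control to 2.46 and 2.62 in ZScG (-1.68 ± 0.31) and to 4.32 and 4.61 with S (-0.86 ± 0.26). It was lower in 10 stimulations. The S call was lost without Ctrl replicate 2 (-0.73), without S replicate 1 (-0.81) and with total-count scaling (-0.50). The peak 26.5 kb past the start, just beyond the gene end and inside Gm44148, was called in no stimulation, with values from -0.40 in PS to 0.42 in LH. With total-count scaling the PS value was 0.01 and the LH value 0.72, past the threshold.

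**Figure D3:**
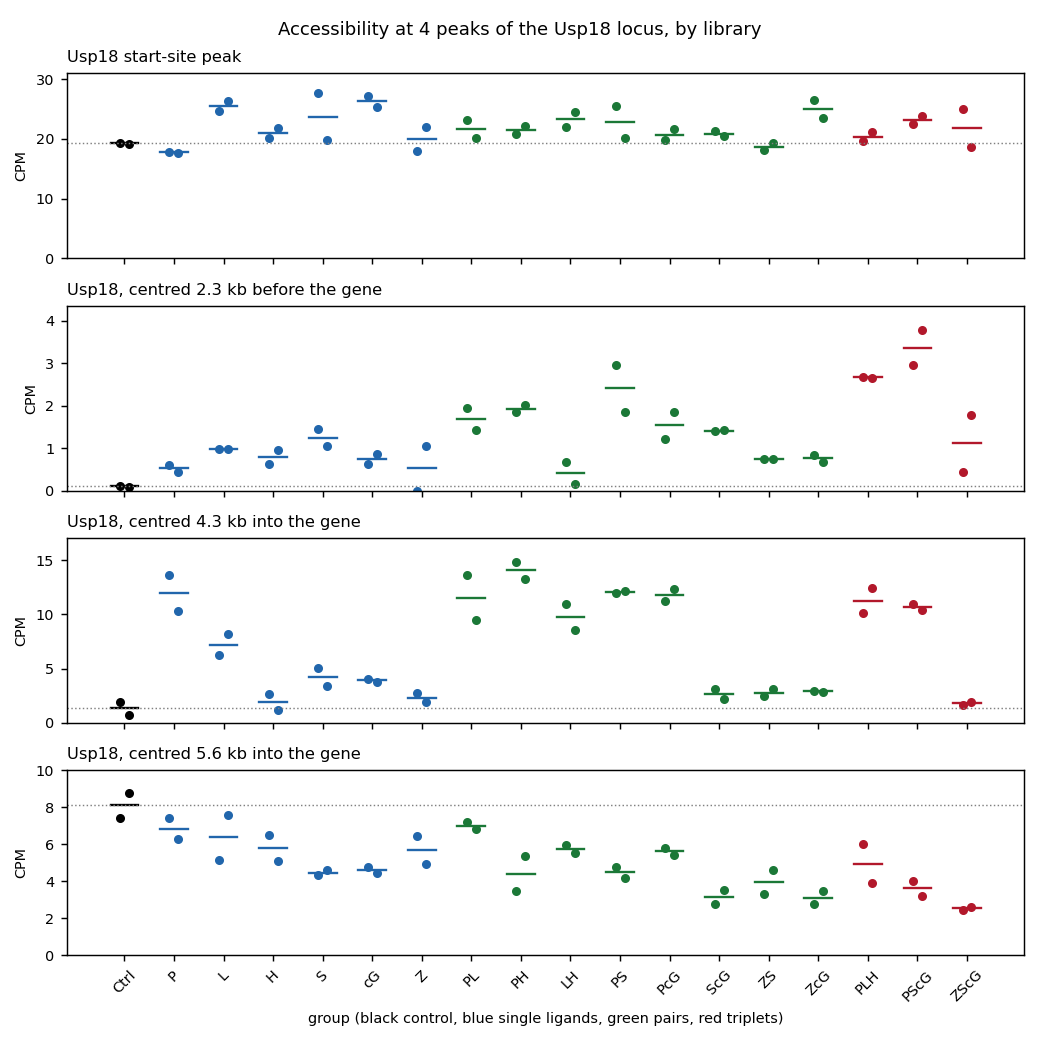
CPM in each library (points, with group means as bars and the control mean dotted) at 4 peaks of the Usp18 locus. The start-site peak stays between 17.7 and 27.7 CPM, whereas the peak 4.3 kb into the gene lies at 8.57 CPM or more in all combinations with P or L and at 5.04 or less in all groups without them.

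Isg20, the exonuclease gene, opened at its start-site peak (chromosome 7, 78911586 to 78915425) with 16 stimulations. The level was 30.8 and 31.5 CPM in control. It was 62.5 and 64.4 with cG, 58.4 and 61.0 with H, 56.7 and 62.4 with L, 57.8 and 55.7 with S and 49.9 and 48.8 with Z. The fold was 2.04 with cG (log2 1.03 ± 0.10), 1.91 with H (0.94 ± 0.10), 1.91 with L (0.93 ± 0.10), 1.82 with S (0.86 ± 0.10) and 1.58 with Z (0.66 ± 0.11). P stood at 26.6 and 27.1 CPM, below both control libraries, with -0.22 ± 0.11 (adjusted p = 0.16), and the sign turned to 0.11 with total-count scaling. Combinations ranged from 0.55 in PcG to 1.08 in ZcG, and all 11 passed the test. The peak 11.1 kb past the start was called in no stimulation, with values from -0.48 in LH to 0.54 in PH.

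Across the mean log2 levels of the 18 groups, which share the control and the libraries, Pearson's r between start sites was 0.802 for Herc6 and Isg20, 0.752 for Isg15 and Isg20 and 0.735 for Isg15 and Herc6. It was 0.215 for Uba7 and Isg20 and 0.453 for Uba7 and Isg15. Among 11166 candidate promoter peaks, those most like the Isg15 start site over the 18 groups were at Gm34414 (r = 0.948), H2-Q6 (0.930), which encodes a class Ib MHC molecule, and Rtn2 (0.928). Those most like Herc6 were at Cbx1 (0.853), Ifi206 (0.850) and Ifi208 (0.839), the latter a pair of interferon-inducible genes. Ifi208 was also among those most like Usp18 (0.824), after Zc3h7a (0.863) and before Samhd1 (0.810). Those most like Isg20 were at 1700109I08Rik (0.894), Zfp945 (0.893) and Ifi214 (0.878), and those most like Uba7 were at Cpd (0.909), A630001O12Rik (0.882) and Milr1 (0.881).

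Pairs were compared with their single ligands to ask what the added ligand changed. Adding L, H, S or cG to P raised the start sites of Isg15, Isg20 and Herc6, which had not passed the test with P alone. These 4 comparisons leave out control and stay within the groups of lower mitochondrial share. PL called 10 of the 40 peaks against P, all higher (8.46% of all peaks called), and PH called 9, all higher (2.66%). PS called 14 against P, 13 higher and 1 lower (18.1%), and PcG called 12, all higher (14.7%).

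At the Isg15 start site, PS exceeded P by 1.15 ± 0.13 on the log2 scale (2.21-fold), PcG by 1.01 ± 0.14, PL by 0.87 ± 0.14 and PH by 0.82 ± 0.14. At Isg20 the gains were 1.09 ± 0.10 with PH, 1.06 ± 0.10 with PL, 0.86 ± 0.10 with PS and 0.76 ± 0.10 with PcG. At Herc6 they were 0.51 ± 0.10 with PL, 0.49 ± 0.10 with PcG, 0.43 ± 0.10 with PH and 0.42 ± 0.10 with PS. All 12 values passed the test, and the PH value at Herc6 lost its call without P replicate 2 (0.37) or PH replicate 2 (0.38). The start sites of Uba7 and Usp18 were called in none of the 4 comparisons, with values of -0.03 to 0.35. At the Usp18 peak 4.3 kb into the gene, the second ligand added -0.03 to 0.24 and was called in none.

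Adding P to another ligand gave 0 to 3 calls among these peaks, a share of at most 7.5%, beside 1.13% to 9.11% over all peaks. PL called 0 of the 40 against L (1.13% of all peaks called), by edgeR and by DESeq2, with 4 at an unadjusted p under 0.05 and 1 called with total-count scaling. PH called 3 against H (7.55%), PS 2 against S (2.93%) and PcG 3 against cG (9.11%). The Usp18 peak 4.3 kb into the gene was among them each time. There P added 2.79 ± 0.26 to H (6.92-fold, adjusted p = 3.3e-18), 1.58 ± 0.24 to cG and 1.52 ± 0.23 to S. It added 0.68 ± 0.22 to L (adjusted p = 0.11). P added to H raised the Uba7 start site by 0.50 ± 0.12, which was 0.34 and no longer called without H replicate 2. P added to cG lowered the Isg20 start site by 0.48 ± 0.10 (0.717-fold) and the Isg15 peak 3.5 kb downstream by 0.26 ± 0.09, a call lost with other size factors (-0.24) and without cG replicate 1 (-0.21), cG replicate 2 (-0.30) or PcG replicate 2 (-0.17). P added to S lowered the Herc6 peak at 1.5 kb by 1.09 ± 0.26, a call lost without S replicate 2 (-0.97) or PS replicate 2 (-1.04).

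**Figure D4:**
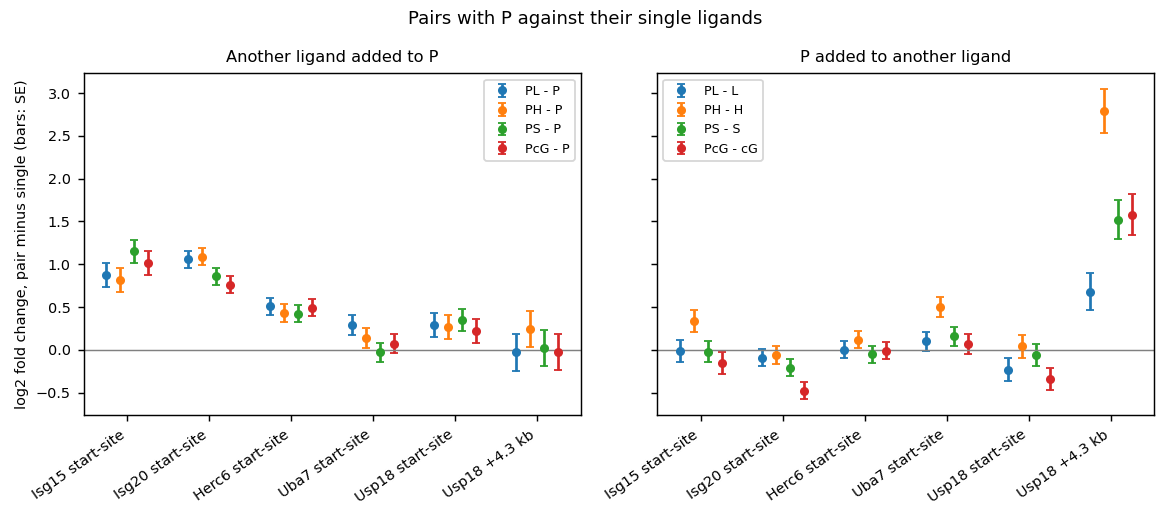
Fitted log2 difference (points, bars are the standard error) between each pair with P and its single ligands at the 5 start sites and the Usp18 peak 4.3 kb into the gene. Adding another ligand to P (left) raised Isg15, Isg20 and Herc6 by 0.42 to 1.15, whereas adding P (right) raised the inner Usp18 peak by up to 2.79.

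Pairs without P gained less over L, S and cG than over H and Z by their counts of calls. The share of all peaks called ran the same way within LH, ZS and ZcG, so the order is not particular to these loci. LH called 0 peaks against L (0.0645% of all peaks called, 6 at an unadjusted p under 0.05, 0 by DESeq2) and 3 against H (3.78%). The 3 were the Usp18 peaks at 4.3 kb (2.28 ± 0.27) and 7.2 kb upstream and the Uba7 start site (0.47 ± 0.12). The Uba7 call was lost without H replicate 2 (0.31), LH replicate 1 (0.46) or LH replicate 2 (0.48). ScG called 0 against S (0.579%, 3 at an unadjusted p under 0.05, 0 by DESeq2) and 2 against cG (4.94%), both lower: the Isg15 peak 9.3 kb upstream (-0.81 ± 0.23) and the Uba7 start site (-0.45 ± 0.12), the latter lost without cG replicate 2 (-0.32) or ScG replicate 2 (-0.34). The Isg15 call was lost without cG replicate 2 (-0.75), ScG replicate 1 (-0.81) or ScG replicate 2 (-0.81). With total-count scaling these counts were 7 and 9.

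ZS called 9 against Z, all higher (15.2%), among them the Isg15 start site (0.68 ± 0.14) and the Isg20 start site (0.37 ± 0.10). By group mean, Z (61.67% mitochondrial) and ZS (54.55%) lie on either side of the split in that share. The 2 ZS libraries were unlike, at 58.1% and 51.0%. The count was 5 without Z replicate 1. ZcG called 7 against Z, all higher (9.07%), among them the start sites of Isg20 (0.41 ± 0.10) and Herc6 (0.41 ± 0.10). The Isg20 value for ZS was also 0.37 without Z replicate 2, with its call lost. Against the other ligand, ZS called 0 (2.53%, 3 at an unadjusted p under 0.05, 0 by DESeq2 and 3 with total-count scaling) and ZcG 1 (2.87%), the Uba7 peak at 10.3 kb (-0.47 ± 0.13). That call was lost without cG replicate 2 (-0.42), ZcG replicate 1 (-0.55) or ZcG replicate 2 (-0.40), and total-count scaling gave 9 calls.

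Each pair was then set against the sum of its single effects in an interaction term, where a negative value means less than the sum on the log2 scale. All 50 called values over the 8 pairs were negative. Among all peaks, negative calls also outnumbered positive ones in each pair. The shares were 1.08% and 0.471% in PH, 2.6% and 0.826% in ZS, 2.62% and 2.26% in LH and 7.52% and 6.92% in ScG. ScG called 17 of the 40 peaks (14.4% of all peaks called), LH 11 (4.88%), ZcG 5 (2.49%), PL 4 (6.75%), PS 4 (4.59%), ZS 4 (3.43%), PcG 3 (3.27%) and PH 2 (1.55%). Control enters every such term with its difference in mitochondrial share, and without Ctrl replicate 1 the 50 became 31. With total-count scaling they became 81. For ScG the count was 11 without Ctrl replicate 2. For LH it was 4 without Ctrl replicate 1 and 7 without L replicate 2, H replicate 1 or H replicate 2.

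With ScG, the shortfall reached all 5 start sites. It was -1.67 ± 0.20 at Isg15 (adjusted p = 4.2e-12), -1.15 ± 0.18 at Uba7, -0.88 ± 0.14 at Isg20, -0.63 ± 0.20 at Usp18 and -0.40 ± 0.14 at Herc6. At the Isg15 start site, S had 28.9 and 26.4 CPM, cG 27.1 and 27.9, and the pair 25.0 and 23.5. The pair was lower than S by 0.19 ± 0.13 and lower than cG by 0.18 ± 0.13, neither past the threshold, and both passed it with total-count scaling at -0.48 and -0.45. The mitochondrial share was 59.35% in ScG, 47.93% in S and 46.13% in cG, and its part in the shortfall was not tested. The Usp18 call was lost without any of Ctrl replicate 2 (-0.62), S replicate 1 (-0.37), cG replicate 1 (-0.58) or ScG replicate 2 (-0.61). The Herc6 call was lost in 7 of 8 such repeats, at -0.43 to -0.27.

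Outside ScG, the Isg15 start site fell short of the sum with ZcG (-1.11 ± 0.21), LH (-0.83 ± 0.20) and ZS (-0.80 ± 0.21). The LH value was -0.70 without Ctrl replicate 1 and -0.73 without H replicate 1, and neither passed the test. The ZS value missed it without Ctrl replicate 1, S replicate 1, Z replicate 2 or ZS replicate 2, at -0.74 to -0.68. Isg20 fell short with LH (-0.94 ± 0.14), ZcG (-0.61 ± 0.15) and ZS (-0.49 ± 0.15), the last lost in each of the 8 repeats without 1 library, at -0.52 to -0.47. Uba7 fell short with PcG (-0.82 ± 0.17), PL (-0.79 ± 0.17), PS (-0.74 ± 0.17), ZcG (-0.64 ± 0.19) and LH (-0.62 ± 0.17). The LH call was lost without Ctrl replicate 1, L replicate 2, H replicate 1 or LH replicate 2, at -0.61 to -0.43. The ZcG call was lost in every repeat without 1 library but that without cG replicate 1, at -0.67 to -0.51. The Usp18 peak at 4.3 kb fell short with PL (-2.46 ± 0.39), ScG (-2.18 ± 0.46), PS (-1.62 ± 0.40) and PcG (-1.57 ± 0.41). Without Ctrl replicate 2 the last 2 were -1.07 and -1.02, without S replicate 1 PS was -1.31 and without P replicate 1 PcG was -1.35, and those calls were lost.

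**Figure D5:**
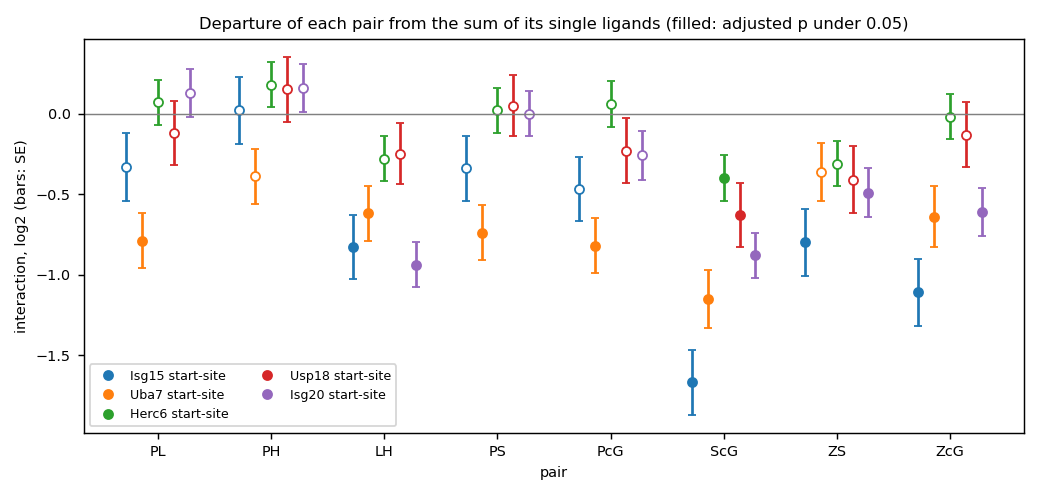
Interaction of each pair on the log2 scale (points, bars are the standard error, filled where the adjusted p was under 0.05) at the 5 start-site peaks. All filled points lie below 0, the lowest at -1.67 for Isg15 with ScG, while Herc6 and Usp18 are filled for ScG alone.

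Few peaks were called between a triplet and its pairs, at these loci and over all peaks alike. Where at most 0.772% of all peaks were called, 0 of the 40 is not particular to these loci. Of the 9 comparisons of a triplet with a pair it contains, 6 called 0 of the 40 peaks by edgeR and by DESeq2: PLH against PL (0.000837% of all peaks called) and PH (0.248%), PScG against PS (0.602%) and PcG (0.412%), and ZScG against ZS (0.0586%) and ScG (0.772%). At an unadjusted p under 0.05 they had 3, 1, 4, 11, 1 and 3. PScG called 3 against ScG (4.53%): the inner Usp18 peak (1.98 ± 0.27), the Uba7 start site (0.52 ± 0.12) and the Isg20 start site (-0.32 ± 0.10). The Isg20 value was -0.13 without ScG replicate 1, -0.33 and -0.31 without PScG replicate 1 or 2, and -0.03 with total-count scaling, each without a call. The Uba7 value lost its call without ScG replicate 2 (0.40) or PScG replicate 2 (0.49). PLH called 2 against LH (0.546%), at 2.3 kb upstream (2.56 ± 0.56) and 26.5 kb past the start of Usp18 (-0.80 ± 0.17). Both calls were lost without LH replicate 2 (1.95 and -0.73), PLH replicate 1 (2.56 and -0.76) or PLH replicate 2 (2.57 and -0.84). ZScG called 1 against ZcG (2.79%), the Herc6 start site (-0.41 ± 0.10), lost without ZcG replicate 1 (-0.37), ZScG replicate 1 (-0.42) or ZScG replicate 2 (-0.40).

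The triplet interaction, which sets a triplet against its singles and pairs, was positive at all 6 values called. PScG called 3 (2% of all peaks): Usp18 at 4.3 kb (2.03 ± 0.55), the Uba7 start site (1.18 ± 0.24) and Isg15 at 3.5 kb (0.63 ± 0.18). ZScG called 2 (1.89%), the Isg15 start site (1.27 ± 0.28) and its peak at 3.5 kb (0.82 ± 0.18). PLH called 1 (0.783%), Uba7 at 6.9 kb (2.35 ± 0.47). A positive term does not mean a level above every pair. At the Isg15 start site ZScG had 28.5 CPM and ZS 29, and at the Uba7 start site PScG had 35 and PcG 35.1. The inner Usp18 peak had 11 and 10.4 CPM in PScG and 12 and 12.2 in PS. At Uba7 6.9 kb PLH, with 7.83 and 7.67 CPM, lay above its pairs (5.26 to 7.23), with no call against them. The Usp18 call was lost without Ctrl replicate 2 (1.48), P replicate 1 (1.81), S replicate 1 (1.72), PcG replicate 1 (1.96) or ScG replicate 2 (1.81). The Isg15 value at 3.5 kb lost its call for PScG in 10 repeats without 1 library, at 0.54 to 0.64, and for ZScG without Z replicate 2 (0.63).

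Between single ligands, no difference between cG and S passed the test at any of the 40 peaks (0.949% of all peaks called, 4 at an unadjusted p under 0.05, 0 by DESeq2). At the Isg15 start site the difference of cG and S was -0.00 ± 0.13. Against P, L called 16 of the 40 (15 higher, 11.1% of all peaks called), cG 17 (16 higher, 23.8%), S 15 (14 higher, 24.5%), H 13 (11 higher, 12.1%) and Z 7 (5 higher, 11.1%). The peak called lower than P in all 5 comparisons was the inner Usp18 peak. Z was below S in 12 (17.4% of all peaks called, 7.67% lower) and below cG in 11 (15.5%, 6.65% lower), with none higher. At the Isg15 start site Z was below each by 0.61 ± 0.14. Z and these ligands lie on either side of the split in mitochondrial share, which cannot be told apart from the ligand here.

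Other genes were listed around the conjugation and interferon receptor pathways, and not all of them belong to either, Otulin among these. Of the listed genes, Ube2l6 and Irf7 opened in the most stimulations. Of 19 genes listed, 14 had a peak over the promoter window. Ube2l6, the gene of the E2 enzyme, was called higher in all 17 stimulations, from 0.44 to 1.5, with 27.2 and 21.6 CPM in control and 70.7 and 66.5 with cG. Irf7, which amplifies interferon production, was higher in 16 (0.32 to 1.09). Stat2 was higher in 10 (up to 0.60), Trim25, the gene of another ligase, in 9 (up to 0.53), and Itgal in 7 (up to 1.18), at a gene-body peak. Usp14 was lower in 10 (down to -0.63), Ube2e1 in 9 (-0.76), Ube2e2 in 9 (-1.22), Otulin in 8 (-0.44), Tyk2 in 6 (-0.48), Itgb2 in 5 (-0.72), Arih1 in 4 (-0.50) and Jak1 in 3 (-0.36). Usp5, Ifnar1, Ifnar2, Irf9 and Irf3 were called in none. With S and with cG, 5 of the 19 were higher and none lower, beside 27.9% and 23.3% of all peaks called, and with P 2 were higher and 4 lower, beside 20.5%.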

How the data were processed

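Open chromatin was profiled by ATAC-seq in 36 libraries of mouse dendritic cells, 2 in each of 18 groups. The authors deposited 1 table of unnormalised read counts, with a row for each peak. Per the submitters' processing notes, reads were aligned with Bowtie2 2.2.9 to mm10, peaks were called with MACS2, and featureCounts and bedtools were used. Whether peaks were called on pooled libraries is not given in the sources used here. The peak on the mitochondrial genome was left out of library sizes and tests. It held 44.14% to 63.06% of a library.

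Counts were normalised by TMM and tested with edgeR 4.0.16 (limma 3.58.1, R 4.3.3) by quasi-likelihood with trended dispersions and 1 coefficient per group over all 36 libraries, with 18 residual degrees of freedom. The filter needed 10 counts and removed 286 peaks, leaving 119464. P-values were adjusted by Benjamini and Hochberg within each of 68 contrasts, and a peak was called at an adjusted p under 0.05. The common dispersion was 0.02. Intervals are at 95% and, like the floors of 3 counts, cover counting error only. Motif letters were searched in RefSeq promoter windows. The test was checked on simulated counts.

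The genes, lists and tests were chosen with earlier results of these data known. Named peaks are each gene's start-site peak (over the promoter window, or the strongest on the gene body where no window was given) and its other peak of highest mean level, with extremes of a quoted range. The other peaks named in the text were chosen after their values were seen. Genes most alike were the 3 highest correlations. Some listed genes are counted but not reported here by name. Same-numbered libraries did not deviate together (r from -0.04 to 0.03, 0 of 153 pairs over 0.1), so the numbers pair nothing. Alternatives were other size factors (RLE), total-count scaling, DESeq2 1.42.0, no filter, the mitochondrial peak kept, per-peak dispersions, only the groups compared, a replicate block, a window of 1 kb and leaving out each library.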

Additional observations from a re-analysis of the deposited data

Results flagged for a closer look

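The interaction terms ask whether a ligand acts otherwise in the presence of another, and at these loci some passed the test in each of the 11 combinations, although for PH every repeat that left out 1 library called fewer. Less than the sum of the single effects was called at 17 of 40 peaks for ScG (14.4% of all peaks), 11 for LH (4.88%), 5 for ZcG (2.49%), 4 each for PL (6.75%), PS (4.59%) and ZS (3.43%), 3 for PcG (3.27%) and 2 for PH (1.55%). Leaving out 1 library took LH to 4, PL to 2, PS and ZS to 1 and PH to 0 at the lowest. The triplet term was called positive at 3 peaks with PScG (2%), at 2 with ZScG (1.89%) and at 1 with PLH (0.783%). Such a term does not mean a level above every pair. The differences were tested by the interaction term itself in edgeR, with 2 libraries a group and control in every term.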

How the results depend on the processing

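Of the 168 named values that passed the test, 0 changed sign in any repeat. A fit with a replicate block called 257 values against control where the fit without it called 256, and changed no count by over 1.5 times. Size factors from DESeq2, the test of DESeq2, no filter, the mitochondrial peak kept and per-peak dispersions moved 2 counts: ZScG against ZcG had 2 calls (RLE, mitochondrial peak kept, per-peak dispersions, DESeq2) and PLH against LH 1 (DESeq2, which gave the other peak no adjusted p). Fitting only the groups compared gave 1 call for the PH interaction, 3 for that of ZcG and 2 for PScG against PcG. The cause of the shifts was not tested, except that a narrower window holds fewer peaks.

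With the gene body and 1 kb, which holds 21 of the 40 peaks, 153 values were called against control, 40 between pairs and singles and 72 between singles. All counts in this paragraph are of those 21 peaks, so a lower count is not a lower share. Against control these were 11 for S, 12 for cG, 9 each for PL, PS, PcG and PLH, 10 each for ScG, ZS and PScG, 11 for ZcG and 7 for ZScG. They were 5 for PL, 4 for PH, 6 for PS and 6 for PcG against P, 1 for ScG against cG, 4 for ZS and 3 for ZcG against Z, 11 for the ScG interaction and 1 for PLH against LH.

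Scaling by total counts called 81 pair interactions, 18 triplet interactions and 10 differences of triplets from pairs. It called 11 for P and 16 for H against control, 1 for PL against L, 7 for ScG and 3 for ZS against S, 9 for ScG and 9 for ZcG against cG, and 7 for PScG against ScG. Its interactions were 9 for PL, 5 for PH, 7 for PS, 7 for PcG, 10 for ZcG, 3 for PLH, 8 for PScG and 7 for ZScG. It turned the sign of 5 uncalled values: the start sites of Usp18 with P (0.21) and ZS (0.15), Herc6 with P (0.26) and Isg20 with P (0.11), and Usp18 at 26.5 kb with PS (0.01).

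Leaving out 1 library gave 192 to 256 calls against control, 69 to 75 for pairs and singles, 31 to 50 pair interactions (31 without Ctrl replicate 1), 4 to 6 triplet interactions, 4 to 7 for triplets and pairs and 108 to 121 between singles. Against control the ranges were 5 to 6 for P, 11 to 14 for L, 6 to 8 for H, 15 to 19 for S, 11 to 15 for cG, 3 to 5 for Z, 10 to 12 for PL, 9 to 12 for PH, 11 to 12 for LH, 13 to 16 for PS, 13 to 13 for PcG, 14 to 16 for ScG, 12 to 15 for ZS, 12 to 13 for ZcG, 10 to 14 for PLH, 14 to 17 for PScG and 12 to 14 for ZScG. The lowest for cG, PLH and Z came without Ctrl replicate 2, Ctrl replicate 2 and Z replicate 2.

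Pairs against singles had 8 to 10 (PL and P), 6 to 9 (PH and P), 1 to 3 (PH and H, low without H replicate 2), 1 to 2 (LH and H, low without H replicate 2 or either LH library), 11 to 12 (PS and P), 1 to 3 (PS and S, low without S or PS replicate 2), 11 to 12 (PcG and P), 2 to 3 (PcG and cG), 0 to 2 (ScG and cG, low without cG or ScG replicate 2), 5 to 8 (ZS and Z, low without Z replicate 1), 5 to 6 (ZcG and Z) and 0 to 1 (ZcG and cG, low without cG replicate 2 or either ZcG library). Interactions had 2 to 4 (PL, low without Ctrl or PL replicate 1), 0 to 1 (PH, any library), 4 to 10 (LH), 1 to 4 (PS, low without S replicate 1), 2 to 3 (PcG), 11 to 17 (ScG), 1 to 4 (ZS, low without Ctrl replicate 1, S replicate 1, Z replicate 2 or ZS replicate 2), 3 to 4 (ZcG, low without Ctrl replicate 1, cG replicate 2 or any Z or ZcG library), 1 to 1 (PLH), 1 to 3 (PScG, low without ScG replicate 2) and 1 to 2 (ZScG, low without Z replicate 2). Triplets had 0 to 2 (PLH and LH, low without LH replicate 2 or either PLH library), 1 to 3 (PScG and ScG, low without PScG replicate 2), 0 to 1 (ZScG and ZcG, low without ZcG replicate 1 or either ZScG library) and 0 to 1 (ZScG and ScG, 1 without ScG replicate 1).

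Uncalled values that turned sign ranged from -0.11 to 0.19 (Z), -0.09 to 0.00 (ZS) and -0.05 to 0.39 (ZScG) at the Usp18 start site, -0.19 to 0.09 at that of Herc6 with P, -0.15 to 1.39 (H) and -0.13 to 1.22 (ZScG) at Usp18 4.3 kb, -1.14 to 1.19 at Isg15 6.6 kb with P, -0.25 to 0.08 at Uba7 10.3 kb with Z and -0.00 to 0.47 at Herc6 9.1 kb upstream with LH. Depth limits the 17 peaks with a mean level under 2 CPM.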
